A study of Mustela putorius furo with 10 samples.

Results

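The genes of the proteasome were followed in peripheral blood mononuclear cells (PBMC) of ferrets kept in the cold or at room temperature. Members were the genes with a ferret symbol that begins with PSM, a letter from A to G and a digit, and whose probes gave a PBMC signal well above background on at least 4 of the 10 arrays. Of 49 such symbols in the RefSeq gene table, 43 were found on the array by the accession of the target sequence, and 42 passed the signal filter out of 26303 genes tested. The filter removed PSMA8, the testis form of an alpha subunit. PSMA7, PSMB1, PSMB3, PSMB8, PSMB9 and PSMG4 were not matched to a target and were not analysed here. The filter decided little among the others, since the PBMC signal was well above background on all 10 arrays for 41 members and on 9 arrays for PSMB11.

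The proteasome is the protease that degrades proteins tagged with ubiquitin. Its core is a barrel of alpha and beta rings with the catalytic sites on the inner face of the beta rings, and a regulatory cap with a ring of ATPases recognises, unfolds and feeds in the substrates. In lymphoid cells and under interferon gamma, PSMB8, PSMB9 and PSMB10 take the places of the constitutive catalytic subunits PSMB5, PSMB6 and PSMB7 in newly built cores, which are then called immunoproteasomes and cut peptides suited to MHC class I. The activators PSME1 and PSME2 open the core without ATP and are also interferon-inducible. In bulk PBMC, fewer cells of a type and less RNA per cell cannot be told apart.

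The control group consisted of 6 male ferrets of 3 months of age kept at 22 °C, and the cold group of 4 male ferrets of the same age acclimatised to 4 °C for 1 week. Each array carried the PBMC RNA of 1 ferret in Cy3 and a common pool of PBMC and other tissues in Cy5, with no dye swap. Values are log2 ratios of PBMC over this pool after background correction and loess normalisation, and a difference is cold minus control on that scale. Cold-exposed ferrets were housed individually, and since the housing of the controls is not stated, temperature and housing cannot be told apart. PBMC from only some of the animals of each group were hybridised.

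The 42 members were represented by 55 target sequences, 220 probes and 496 spots, with all 220 probes kept. They were grouped as 11 constitutive core subunits (PSMA1 to PSMA6, PSMB2, PSMB4, PSMB5, PSMB6 and PSMB7), 1 immunoproteasome subunit (PSMB10), 25 genes of the caps, activators and cap assembly, and 5 others. The 5 others were PSMB11, the catalytic subunit of the thymus proteasome, the core assembly chaperones PSMG1, PSMG2 and PSMG3, and PSME3IP1, a protein that binds the activator PSME3 and only shares the prefix. Because PSMB8 and PSMB9 were not matched, the immunoproteasome rests on PSMB10 and on the activators PSME1 and PSME2.

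The arrays differed in their reference channel. The median Cy5 intensity of the member probes was 134.5 to 673 on the control arrays and 233 to 2280.5 on the cold arrays, whereas the median Cy3 intensity was 2926 to 4341 and 3745 to 5652. The share of member spots well above background was 98.2 to 100% in Cy3 over the 10 arrays, but in Cy5 it was 71.6 to 97.8% on the control arrays and 86.5 to 100% on the cold arrays. Cy5 was well above background on all 10 arrays for 32 members. PSMC2, PSMD10, PSMD12, PSME3 and PSMF1 reached it on at most 2 of 6 control arrays, and their ratios rest on a dim reference there. The part of the reference channel in the differences was not tested, and Cy3 alone, quantile normalised between arrays, is therefore given beside the ratios of the genes and lists the results turn on.

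**Figure D1:**
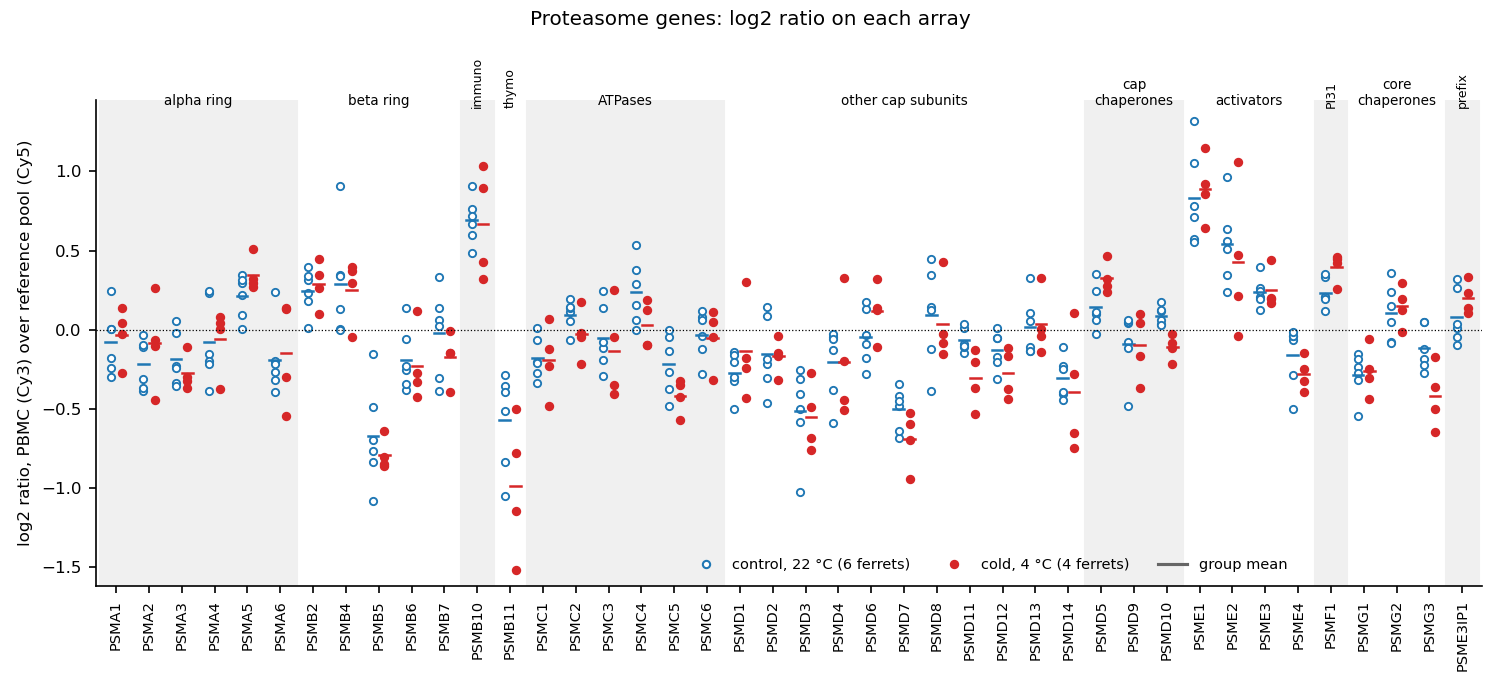
The log2 ratio of PBMC (Cy3) over the reference pool (Cy5) is plotted for each of the 42 proteasome genes, with open circles for the 6 control ferrets, filled circles for the 4 cold-exposed ferrets and a bar for each group mean. PSME1, PSMB10 and PSME2 lie highest and PSMB5, PSMB11, PSMD3 and PSMD7 lowest in both groups, and PSMD10 is the gene whose 2 groups do not overlap.

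No proteasome gene was called changed by cold. With limma and Benjamini-Hochberg adjustment over all genes, 0 of 42 members had an adjusted p under 0.05, and neither did any other gene (0% of 26303, lowest adjusted p 0.0576). At the unadjusted threshold of 0.01, 0 of 42 members passed, where 8.64% of all genes did, 5.21% higher and 3.43% lower. At 0.05, 3 members passed and all were lower, the cap assembly chaperone PSMD10, the core assembly chaperone PSMG3 and the cap subunit PSMD11. Among all genes 24.7% passed at this threshold, 12.2% higher and 12.5% lower, and 3 of 42 is a smaller share than that background. Of the 42 members, 16 were higher and 26 lower in cold, and their differences ran from -0.41 in PSMB11 to 0.19 in PSMD5.

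The differences of the members were small in the loess ratios, and larger with median centring or in the authors' deposited values, as given below. In the loess ratios their median was -0.02 with a median absolute difference of 0.09, against -0.01 and 0.15 over all genes. The median standard error was 0.118 in the members and 0.118 over all genes. The 95% confidence interval of the difference lay within 1 log2 unit of zero in all 42 members and within 0.5 in 39, the exceptions being PSMB11, PSME2 and PSMG3. To pass the unadjusted threshold of 0.01 with its own error, the median member would have needed a 1.29-fold difference, and the members ranged from 1.16-fold in PSMD10 to 1.56-fold in PSMB11.

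**Figure D2:**
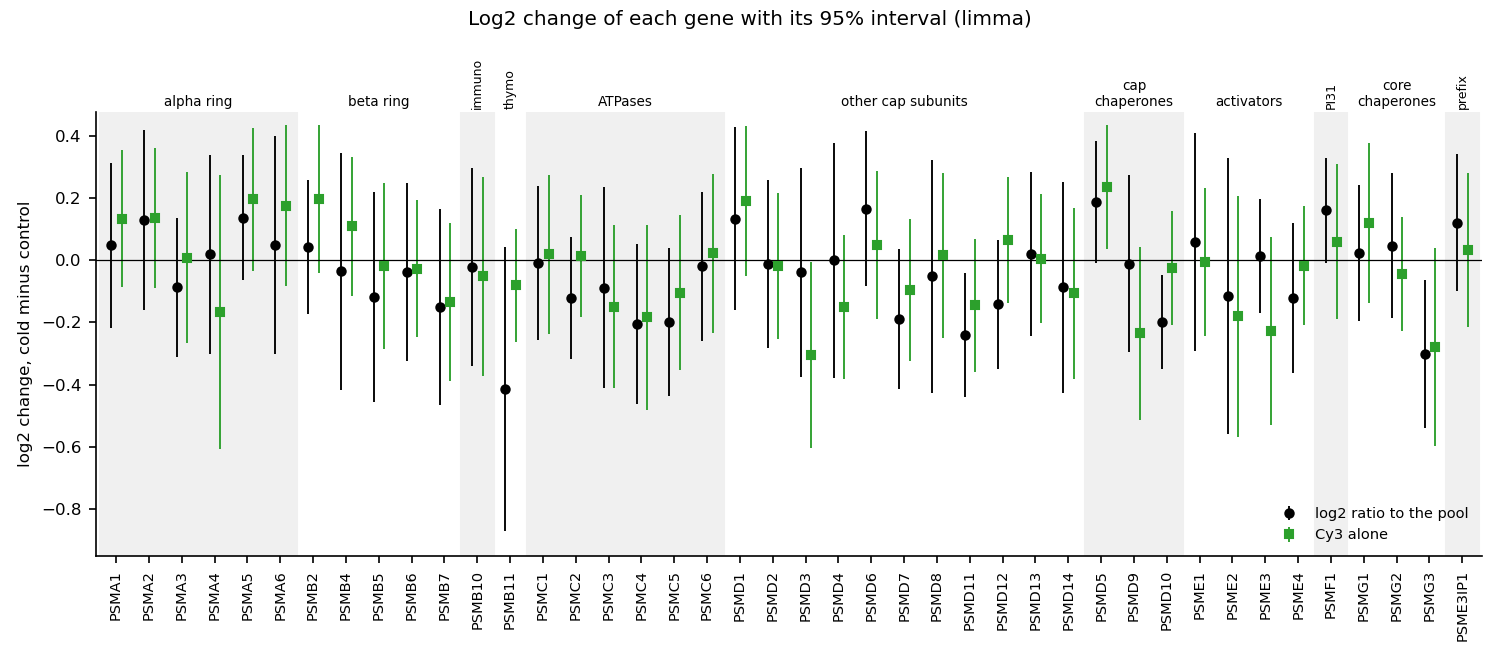
The difference between cold and control (log2 ratio, cold minus control) is plotted for each proteasome gene with its 95% confidence interval from limma, grouped by role, as black circles for the ratio to the pool and green squares for Cy3 alone. Of the ratio intervals those of PSMD10, PSMG3 and PSMD11 lie below zero and the other 39 cross it, and of the Cy3 intervals that of PSMD5 lies above zero and that of PSMD3 below.

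The core subunits had a median difference of 0.02, with 6 of 11 higher and 5 lower, and none passed at 0.05. In the alpha ring, which forms the gate of the core, 5 of the 6 measured subunits were higher and the median was 0.05. PSMA5 was at the upper end. Its log2 ratio was 0.0024, 0.26 and 0.34 as the lowest, median and highest of the control arrays, and 0.32, 0.51, 0.27 and 0.29 on cold replicates 1 to 4. All 4 cold arrays were above the control median but the groups overlapped, and the difference of 0.14 ± 0.09 (SE) had an adjusted p = 0.371 by limma. PSMA3 was the only alpha subunit on the lower side, at -0.09 ± 0.10 (SE), and in Cy3 alone its difference was 0.0085.

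In the beta ring 4 of the 5 measured subunits were lower, with a median of -0.04. The constitutive catalytic subunits are the ones that immunoproteasome subunits displace. PSMB5, with chymotrypsin-like activity, had log2 ratios of -1.08, -0.73 and -0.15 (lowest, median and highest control array) and -0.86, -0.64, -0.81 and -0.85 on the 4 cold arrays. The cold arrays all lay inside the control range, and the difference was -0.12 ± 0.15 (SE, adjusted p = 0.667). PSMB6, with caspase-like activity, was at -0.38, -0.24 and 0.14 in control and at -0.33, 0.12, -0.27 and -0.43 in cold. Cold replicate 2 stood above the other cold arrays, and the difference was -0.04 ± 0.13 (SE, adjusted p = 0.880). PSMB7, with trypsin-like activity, was at -0.39, 0.04 and 0.33 in control and at -0.39, -0.0069, -0.15 and -0.14 in cold. All 4 cold arrays were below the control median, but within the control range or at its lower edge, and the difference was -0.15 ± 0.14 (SE, adjusted p = 0.547). PSMB2, a non-catalytic beta subunit, was the highest of the ring at 0.04 ± 0.10 (SE, adjusted p = 0.819).

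PSMB10 is the trypsin-like subunit of the immunoproteasome and replaces PSMB7. Its log2 ratio was 0.49, 0.69 and 0.91 (lowest, median and highest control array) and 0.43, 0.89, 0.32 and 1.03 on the cold arrays. The cold arrays spread to both sides of the control range, 2 above and 2 below the control median. The means were 0.69 ± 0.14 (SD, n = 6) and 0.67 ± 0.35 (SD, n = 4), and the difference of -0.02 ± 0.14 (SE) had an adjusted p = 0.945. The fold, cold over control, was 0.985 with a 95% confidence interval of 0.79 to 1.23. In Cy3 alone the difference was -0.05 (adjusted p = 0.858).

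The RNA of PSMB10 was set against that of PSMB7, as PSMB10 minus PSMB7 on each array. The exchange of the subunits in newly built cores was not measured. A difference between genes has no absolute meaning on such ratios, and only its shift between groups was read. It was 0.46, 0.68 and 1.02 (lowest, median and highest control array), and 0.82, 0.90, 0.47 and 1.18 in cold. The highest of the 10 values was cold replicate 4, but the groups overlapped widely. The means were 0.71 ± 0.20 (SD, n = 6) and 0.84 ± 0.29 (SD, n = 4), and an exact two-sided permutation test over the 210 splits of the arrays gave p = 0.419 for the difference of 0.13, where the smallest possible p was 0.00476. This was the 1 catalytic pair of which both genes were measured.

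The activators PSME1 and PSME2 form the cap that goes with the immunoproteasome. PSME1 had log2 ratios of 0.56, 0.75 and 1.32 (lowest, median and highest control array) and 0.64, 0.92, 0.86 and 1.15 in cold. All cold arrays lay inside the control range and the difference was 0.06 ± 0.16 (SE, adjusted p = 0.850), with a sign that turned in Cy3 alone, at -0.0050. PSME2 was at 0.24, 0.54 and 0.97 in control and at 0.21, 0.47, -0.04 and 1.06 in cold. Its cold arrays held both the lowest and the highest of the 10 values, with a difference of -0.11 ± 0.20 (SE, adjusted p = 0.761), and -0.18 in Cy3 alone. PSME4, the large nuclear activator known from histone degradation, was the lowest of the 4 activators in the ratio, just below PSME2. All 4 of its cold arrays were below the control median, with a difference of -0.12 ± 0.11 (SE, adjusted p = 0.524). In Cy3 alone PSME4 was at -0.02, and PSME2 lay lower. PSMF1, an inhibitor of the core, was at 0.12, 0.21 and 0.35 in control and 0.46, 0.26, 0.42 and 0.44 in cold. On 3 of 4 cold arrays it was above every control array, and the difference of 0.16 ± 0.08 (SE) had an adjusted p = 0.220, with 0.06 (adjusted p = 0.782) in Cy3 alone.

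The 25 regulatory genes had a median difference of -0.04, with 18 lower and 7 higher. All 6 ATPases that unfold substrates, PSMC1 to PSMC6, were on the lower side with a median of -0.10, but none passed at 0.05. PSMC4 had the largest difference of them. Its log2 ratio was -0.0024, 0.22 and 0.53 (lowest, median and highest control array), and 0.19, -0.10, -0.10 and 0.12 in cold. All 4 cold arrays were below the control median, and the difference of -0.21 ± 0.12 (SE) had an adjusted p = 0.293. PSMC1 had the smallest, at -0.01 ± 0.11 (SE, adjusted p = 0.967). In Cy3 alone 3 of the 6 ATPases were higher, so that their common direction held for the ratios but not for the PBMC channel by itself.

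Of the 11 other cap subunits, which form the lid and the base, 8 were lower and 3 higher, with a median of -0.04. PSMD11, a lid scaffold subunit, was at -0.15, -0.10 and 0.03 (lowest, median and highest control array) and at -0.21, -0.13, -0.37 and -0.54 in cold. Cold replicates 1, 3 and 4 were below every control array, while cold replicate 2 was within their range. The fold was 0.846 (95% confidence interval 0.738 to 0.971), with an adjusted p = 0.144, and all 4 of its probes were lower. In Cy3 alone the difference was -0.14 (adjusted p = 0.378). Without cold replicate 2, PSMD11 and the core chaperone PSMG3 passed the unadjusted 0.01, that is 2 of 42 members against 5.82% of all genes lower. PSMD6, also of the lid, was the highest, at 0.17 ± 0.11 (SE, adjusted p = 0.384).

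PSMD10 (gankyrin), PSMD5 and PSMD9 assist the assembly of the cap, and PSMD10 and PSMD5 differed in opposite directions. PSMD10 was at 0.03, 0.09 and 0.17 (lowest, median and highest control array) and at -0.22, -0.12, -0.02 and -0.08 in cold. It was the 1 member whose groups did not overlap, where 2.15% of all genes did not overlap in the lower direction, 3.07% in the higher and 5.22% in either. The fold was 0.871 (95% confidence interval 0.784 to 0.968), with an adjusted p = 0.128. All 8 of its probes were lower, by -0.36 to -0.08. Its reference signal was well above background on 2 of 6 control and 4 of 4 cold arrays, and in Cy3 alone the difference was -0.03 (adjusted p = 0.878). It passed the unadjusted 0.01 by the methods' t-test, as 1 of 42 members against 2.53% of all genes lower, and without the filter on dim probes, against 2.91%.

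PSMD5 was at -0.02, 0.10 and 0.35 (lowest, median and highest control array) and at 0.24, 0.28, 0.32 and 0.46 in cold. All 4 cold arrays exceeded the control median, and the difference of 0.19 ± 0.09 (SE) had an adjusted p = 0.223. In Cy3 alone its difference was 0.24 (adjusted p = 0.146) and it was the 1 member whose groups did not overlap in that channel, where 7.02% of all genes did not. Its 4 probes were all higher.

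Among the other members, the core assembly chaperone PSMG3 was at -0.27, -0.15 and 0.05 (lowest, median and highest control array) and at -0.50, -0.17, -0.65 and -0.36 in cold. Only cold replicate 2 lay within the control range. The fold was 0.811 (95% confidence interval 0.688 to 0.956), with an adjusted p = 0.133, and all 12 probes were lower. In Cy3 alone it was at -0.28 (adjusted p = 0.258). PSMG2, which pairs with PSMG1 in alpha ring assembly, was at 0.05 ± 0.11 (SE, adjusted p = 0.821). PSMB11 had the largest difference of all members and the largest error. It was at -1.05, -0.45 and -0.28 in control and at -1.52, -0.50, -1.14 and -0.78 in cold. The difference was -0.41 ± 0.21 (SE, adjusted p = 0.239), with the reference well above background on 3 of 6 control and 3 of 4 cold arrays and a Cy3-alone difference of -0.08 (adjusted p = 0.577). PSME3IP1 was at 0.12 ± 0.10 (SE, adjusted p = 0.485).

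Cy3 alone gave the same outcome over the members. None of the 42 passed at an adjusted p of 0.05, where 2.83% of all genes did, and none at an unadjusted 0.01, where 9.87% did. At 0.05, PSMD5 (higher) and the cap subunit PSMD3 (-0.30, adjusted p = 0.194) passed, against 24.9% of all genes. The difference had the same sign in the ratio and in Cy3 alone in 31 of 42 members. The core median was 0.11 and the regulatory median -0.02 in this channel, against -0.04 over all genes.

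**Figure D3:**
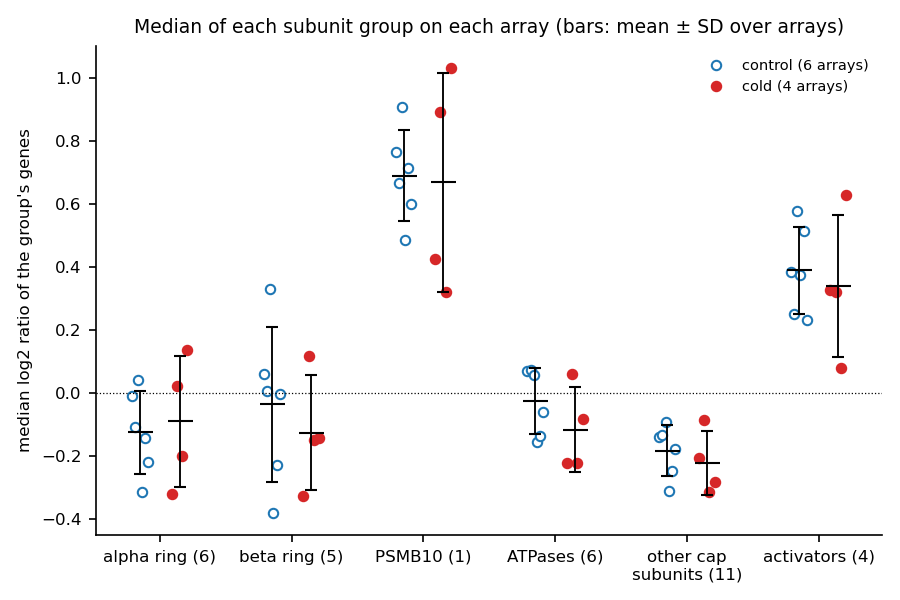
The median log2 ratio (PBMC over reference pool) of the alpha ring, beta ring, PSMB10, ATPases, other cap subunits and activators is plotted for each array, with open circles for the 6 control and filled circles for the 4 cold arrays, and bars for the mean ± SD over arrays. In each subunit group the cold and control arrays overlap, as in the alpha ring, where the medians run from -0.32 to 0.04 in control and from -0.32 to 0.13 in cold.

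The medians over the subunits varied from ferret to ferret within both groups. The median over the 42 members was -0.19 to 0.06 on the control arrays and -0.21 to 0.06 on the cold arrays, and the core median was -0.38 to 0.24 and -0.33 to 0.13. Averaged over the 6 control arrays the member median was -0.05 with an SD of 0.09, and over the 4 cold arrays -0.08 with an SD of 0.12, a shift smaller than either SD. Control replicate 3 held the highest value of 14 members and cold replicate 2 of 9, while cold replicate 1 held the lowest value of 10 and control replicate 4 of 9. All members on an array share the sample, the labelling and the reference, and are not replicates of one another.

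In control PBMC, 8 members were above the pool on all 6 arrays and 11 below it, against 29.1% and 25.8% of all genes. A ratio to this pool says how a gene stands in PBMC against mixed tissue that also held PBMC, and it gives no order of abundance between genes. By their control means the highest were PSME1 at 0.83 ± 0.30, PSMB10 at 0.69 ± 0.14 and PSME2 at 0.54 ± 0.25 (SD, n = 6), and these interferon-inducible genes were picked out after their values were seen. PSME1 ranked 1 or 2 among the 42 members on every array and PSMB10 ranked 1 to 4, whereas PSME2 ranked 2 to 17. PSME1 and PSMB10 differed by less than the SD of PSME1, and PSMB10 and PSME2 by less than the SD of PSME2. With the processed signals of the scanner software, PSME1 ranked 1 to 6, PSMB10 2 to 7 and PSME2 4 to 22, and PSME2 was among the highest 3 on none of the arrays. With median centring they ranked 1 to 2, 1 to 3 and 2 to 9.

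At the other end, PSMB5 had a control mean of -0.67 ± 0.32, PSMB11 of -0.57 ± 0.30, PSMD3 of -0.51 ± 0.28 and PSMD7 of -0.50 ± 0.13 (SD, n = 6). PSMB5, the subunit that PSMB8 displaces, was below the pool on every control array and every cold array. PSMB10 was above the pool on every array, while PSMB7, which it displaces, lay on both sides of it. The low end depended on the scaling. With median centring the ranks among the 42 members were 21 to 41 for PSMB5, 16 to 34 for PSMD3, 31 to 40 for PSMD7 and 42 for PSMB11 on every array, and the genes above the pool on all 6 control arrays numbered 17181 in place of 7666. With the processed signals these 4 members ranked between 33 and 42. In the loess ratios, the differences against the pool were present in both groups and did not separate them.

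**Figure D4:**
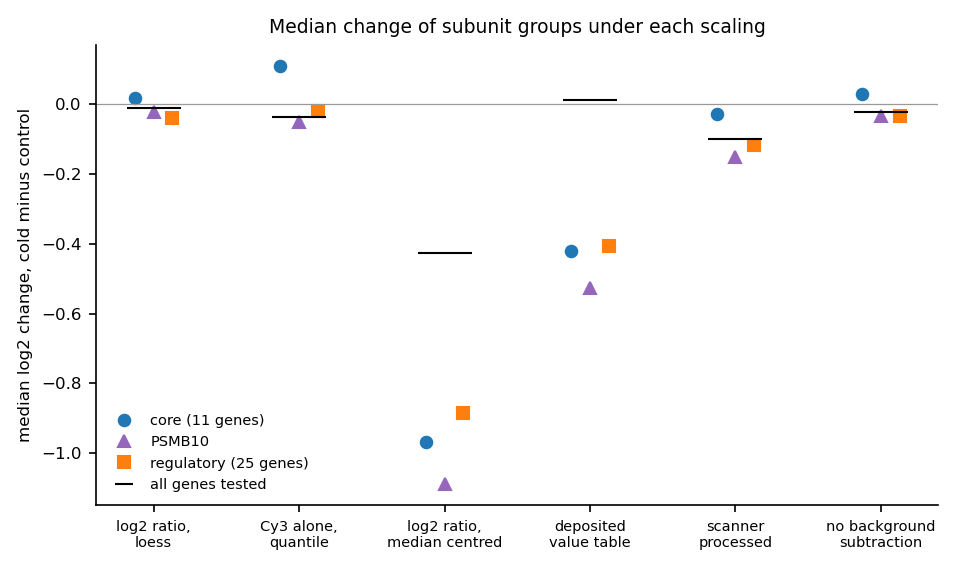
The median difference between cold and control (log2) of the core subunits, PSMB10 and the regulatory subunits is plotted for each way of scaling the arrays, with a black dash for all genes tested. The class medians lie between -0.15 and 0.11 with loess ratios, Cy3 alone, the scanner's processed signals and signals without background subtraction, and between -1.09 and -0.41 with median centring or the authors' deposited values.

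The direction of the subunits as a group depended on the scaling. With arrays only shifted to a median log2 ratio of zero and no loess, the core median was -0.97, PSMB10 -1.09 and the regulatory median -0.89, with 42 of 42 members lower, while the median of all genes was -0.43 and 77.1% of them were lower. The authors' deposited values had a spread within an array that ran from an SD of 1.53 to 2.40. In these values the medians were -0.42, -0.53 and -0.41, with 40 of 42 lower at an all-gene median of 0.01. None of these scalings called any member at 0.01. The cause of the dependence on scaling was not tested.

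The genes around the proteasome were taken from lists of named genes. Of 24 genes for receptors, shuttles, deubiquitinases and transcription factors of the proteasome, 13 were measured, with a median of -0.0056, 6 higher and 7 lower, and 1 in each direction passed at 0.05, where 12.2% of all genes were higher and 12.5% lower. These were UFD1, a cofactor of the segregase VCP, at 0.26 (adjusted p = 0.183), and DDI2, the protease that activates NFE2L1, at -0.31 (adjusted p = 0.126). NFE2L1, the transcription factor that raises subunit genes when proteasomes fail, was at -0.26 ± 0.12 (SE, adjusted p = 0.203). NFE2L2, a transcription factor of the oxidative stress response that also acts on subunit genes, was at 0.45 ± 0.21 (SE, adjusted p = 0.206), the largest difference of the list, and at 0.57 in Cy3 alone. In that channel the list median was 0.01, with 8 higher and 5 lower, 4 of 13 passed at 0.05, against 24.9% of all genes, and 3 at 0.01, against 9.87%. These were NFE2L2, UFD1 (0.30) and the shuttle UBQLN1 (-0.24) at 0.01 and the shuttle RAD23B (0.21) at 0.05. UBQLN1 was at 0.05 in the ratio, so its sign turned. In Cy3 alone the groups did not overlap in 3 genes of the list, against 7.02% of all genes. Of 12 genes of ubiquitin and its main enzymes, 8 were measured with a median of -0.03, and none passed at 0.05, while in Cy3 alone the median was -0.03 and 4 of 8 passed, against 24.9% of all genes. These were the conjugating enzyme UBE2D1 on the higher side, at 0.74, and UBE2N (-0.35), UBE2D2 (-0.29) and the activating enzyme UBA1 (-0.23) on the lower. Of 13 genes for class I presentation, 6 were measured with a median of 0.14, and 1 passed, B2M, the light chain of MHC class I, at 0.62 (adjusted p = 0.158). In Cy3 alone the class I median was 0.0040, with 3 higher and 3 lower and none past 0.05, and B2M was at 0.16. POMP, TAP1 and IRF1 were not matched and were not analysed here.

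Of 20 interferon-response genes, 11 were measured. Their median was -0.40, with 8 lower and 3 higher, and 3 passed at 0.05, all lower, where 12.5% of all genes did so, MX1 at -0.64 (adjusted p = 0.132), IFIT3 at -0.59 (adjusted p = 0.144) and ISG15 at -0.84 (adjusted p = 0.191). In Cy3 alone all 11 were lower with a median of -0.55, 5 passed at 0.05, against 24.9% of all genes, and 3 at 0.01, against 9.87%, so the 3 higher genes were higher in the ratio only. MX1 and IFIT3 were among the 5 and ISG15 was not. The per-array median of this list ran from -0.03 to 0.72 in control and from -0.54 to 0.51 in cold. PSMB10 was at -0.02, PSME1 at 0.06 and PSME2 at -0.11. The difference between the list and these subunits was not tested.

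Markers of the blood cell types had larger median differences than the proteasome genes. In control, the per-array medians of the 7 marker lists averaged 0.34 to 1.11 above the pool, the lowest in T cells and the highest in neutrophils. Of the T cell markers 7 of 8 were lower in cold with a median difference of -0.50, and of the B cell markers 4 of 4 with -0.19. The 5 measured monocyte markers were all higher with a median of 0.60, the 5 neutrophil markers with 0.82 and the 4 platelet markers with 0.87, while the 4 red cell markers were all lower with -0.74 and the 3 cytotoxic markers were at 0.09. At the unadjusted 0.01, 5.21% of all genes were higher and 3.43% lower in the ratio. CD14 and VCAN of the 5 monocyte markers and S100A8 and S100A9 of the 5 neutrophil markers were higher at this threshold. GP9 and TREML1 of the 4 platelet markers were also higher, and the haemoglobin gene HBM of the 4 red cell markers was lower. No platelet marker passed 0.01 in Cy3 alone, while 2 monocyte, 2 neutrophil and 2 red cell markers did, against 9.87% of all genes. In Cy3 alone the median differences were -0.75 for T cells, -0.72 for B cells, 0.47 for monocytes, 0.44 for neutrophils, 1.02 for platelets, -1.73 for red cells and -0.06 for the cytotoxic markers, the last with its sign turned. Of the 8 T cell markers, 5 were lower at 0.05, against 12.5% of all genes, and none passed 0.01 in the ratio, while in Cy3 alone 6 passed 0.01, against 9.87% of all genes, and 4 did not overlap between the groups, against 7.02%. The per-array median of the T cell markers was 0.19 to 0.47 in control and -0.68 to 0.14 in cold, and that of the monocyte markers 0.61 to 1.31 and 1.30 to 1.91. The part of cell composition in the values of PSMB10 and the other members was not tested.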

How the data were processed

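PBMC RNA of 6 control and 4 cold-exposed ferrets was hybridised on 10 two-colour Agilent ferret arrays, 1 per slide, each with 416280 spots of 181312 probes for 45328 target sequences. The authors deposited the scanner output, intensity values per spot from Feature Extraction 10.7.3.1, and a table of processed values per target that behave as log2 values, with the log2 scale taken from the values and the centring not given in the sources used here. That table was an alternative only.

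Median Cy3 and Cy5 intensities were background-corrected (normexp, offset 50) and loess-normalised within arrays in limma 3.58.1 (R 4.3.3). Spots flagged as outliers were left out, which removed 4 to 11 member spots per array. Log2 ratios of Cy3 over Cy5 were averaged per probe and then per gene. The filter kept probes with at least 0.5 of their spots well above background in Cy3 on 4 or more arrays, which left 111051 probes. Targets were named by accession through the RefSeq gene table (21104 targets, 12918 genes), and unnamed targets were tested under their own identifier, giving 26303 genes in all. Cold was compared with control by limma with Benjamini-Hochberg adjustment over all of them, and the unadjusted threshold of 0.01 is that of the methods. The limma fit and the t-test were tested on simulated gene values, and the steps before the fit, scaling among them, were not. The number of arrays limits the precision. For array probes no count depth exists.

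Members named with values were the catalytic subunits, members past 0.01 or without overlap, the 5 largest differences and the extremes of each class, and PSME2, PSMD3 and PSMD7 were added after their values were seen, as were UFD1, DDI2, NFE2L2, UBQLN1, RAD23B, B2M, MX1, IFIT3, ISG15 and 4 ubiquitin enzymes. The members and the gene lists were chosen with earlier results of these data known. Alternatives covered the signals, background, scaling, filter, probe summary, test, array weights, slide position, replicate number and each array left out.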

Additional observations from a re-analysis of the deposited data

How the results depend on the processing

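Over all genes, the number at an adjusted p under 0.05 by limma depended on single arrays. It was 0 with all arrays, 1272 without cold replicate 2, 633 without control replicate 5, and 0 to 12 without any other array. No member was called higher under any of the 24 alternatives. At the unadjusted 0.01, PSMD10 was called lower without the filter on dim probes (1 member) and by the methods' t-test (1 member; 0 genes after Benjamini-Hochberg adjustment), and PSMD11 and PSMG3 without cold replicate 2 (2 members), where the regulatory median was -0.13. Leaving out each array in turn gave 0 members higher, 0 to 2 lower, a core median of -0.04 to 0.07, a regulatory median of -0.13 to 0.030 and a PSMB10 minus PSMB7 difference of 0.02 to 0.25, and single genes whose sign turned ran from -0.14 to 0.095 (PSMB10), -0.0088 to 0.11 (PSMB2), -0.15 to 0.027 (PSMB6), -0.097 to 0.087 (PSMC1), -0.026 to 0.16 (PSME1) and -0.0030 to 0.10 (PSMG2).

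Of 479 values of the named members under the alternatives, 435 kept their sign and side of the threshold, 40 changed sign without being called in either, and 4 were called only under the alternative. Median centring moved the core, PSMB10 and regulatory medians to -0.97, -1.09 and -0.89 and turned PSMA5 (-0.80), PSMB2 (-0.95), PSMD5 (-0.54), PSMD6 (-0.78), PSME1 (-1.02), PSME3IP1 (-0.75), PSMF1 (-0.24) and PSMG2 (-0.68). The deposited values moved the medians to -0.42, -0.53 and -0.41 and turned PSMA5 (-0.28), PSMB2 (-0.42), PSMD5 (-0.12), PSMD6 (-0.28), PSME1 (-0.46), PSME3IP1 (-0.29) and PSMG2 (-0.28). Cy3 alone turned PSMA3 (0.0085), PSMC1 (0.019), PSME1 (-0.0050) and PSMG2 (-0.044), and the scanner's processed signals turned PSME1 (-0.070), PSMF1 (-0.077) and PSMG2 (-0.047). PSME1 also turned with the median over probes (-0.010) and with slide position as a block (-0.0074), PSMB10 with array weights (0.012) and without the brightest Cy5 array of each group (0.065, chosen after seeing the data), and PSMC1 without background subtraction (0.00075). The causes were not tested.

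With the replicate number as a block, 0 members were called higher and 0 lower, and the core, PSMB10 and regulatory values were -0.04, -0.04 and -0.09. Deviations of same-numbered arrays correlated at -0.30, 0.54, 0.10 and -0.19, and those of other-numbered arrays at -0.63 to 0.56. No pairing is stated, and these few correlations cannot decide whether same-numbered arrays shared a processing step.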
